A study of Mus musculus with 6 samples.

Results

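Serpins are a superfamily of proteins that share 1 fold and that mostly inhibit proteases. Their genes were followed here in the liver of mice after ethanol, with and without an active form of the antiviral transcription factor IRF3. Members were all genes whose symbol in GENCODE M21 (build GRCm38) is Serpin followed by a clade letter from a to i and a number. Of 68 such symbols 61 are protein-coding and 7 are pseudogenes, and 59 had a row among the 20894 genes of the count table. The other 9 were not analysed here. Serpins with another kind of symbol, such as the angiotensin precursor Agt, are not members. All mice of both groups carried the Irf3LSL-2D allele, named for a lox-stop-lox cassette placed before the active IRF3-2D form. The Ctrl group (n = 3) had received AAV8-TBG-GFP. The IRF3-2D group (n = 3) had received AAV8-TBG-Cre, a virus whose TBG promoter is active in hepatocytes, so that Cre removes the cassette there. Every mouse was given 3 g/kg of ethanol by intraperitoneal injection, and the liver was taken 2 h later. No mouse without ethanol and none with Cre but without the allele was analysed here, so an effect of Cre or GFP cannot be told apart from one of IRF3-2D. The labels give neither age nor sex, and do not say that each sample was a separate mouse.

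A serpin works as a bait. Its exposed reactive centre loop is cut by the protease, snaps into the body of the serpin and leaves the protease trapped in an inactive complex. The liver makes most serpins of blood plasma, among them alpha-1-antitrypsin (Serpina1), relatives of antichymotrypsin (Serpina3), antithrombin (Serpinc1), heparin cofactor II (Serpind1), alpha-2-antiplasmin (Serpinf2) and C1 inhibitor (Serping1). Some clade A members carry hormones and inhibit nothing, while clade B members mostly stay inside cells and protect them from their own proteases. Mice carry several copies of genes that are single in humans, above all in the Serpina1, Serpina3, Serpinb6 and Serpinb9 groups.

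Library totals were 12054096 to 14830629 counts. Irf3 was 2.41-fold higher in IRF3-2D liver (log2 fold change 1.27, edgeR adjusted p = 0.00152), and its groups did not overlap. The TMM factors, which scale libraries so that most genes keep their level, lay between 0.822 and 0.879 for Ctrl and between 1.12 and 1.23 for IRF3-2D, and with library totals alone the median log2 fold change of all 10802 tested genes moved from 0.03 to 0.49. Levels below are counts scaled by library total and TMM factor (CPM), differences are IRF3-2D over Ctrl, and a call is an adjusted p under 0.05 by edgeR's quasi-likelihood test over all tested genes. The labelled tissue was checked on 12 hepatocyte markers. All 12 were detected, with a summed level of 150367 to 204756 CPM in Ctrl and 79183 to 90351 CPM in IRF3-2D libraries, and 9 of them were called lower and 1 higher (6 and 2 with library totals alone, 7 and 1 without IRF3-2D replicate 1 or 2). In a whole liver, fewer cells of a type and less RNA per cell cannot be told apart. The labels name no batch.

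Of the 59 serpins, 32 had enough counts to be tested. In IRF3-2D liver 3 were called higher (Serpina5, Serpinb9 and Serpina10) and 9 lower (Serpina1a, Serpina1c, Serpina1d, Serpina1e, Serpina3c, Serpina3k, Serpina6, Serpind1 and Serpinf2), while 20 were not called (either way, 26.3% of all tested genes were called). The share called higher, 9.38%, compares with 13.2% of all tested genes, and the share called lower, 28.1%, with 13.1%. The 4 lower Serpina1 genes are near-identical copies that share reads. Without the Serpina1 genes, 5 of 27 serpins were lower (18.5%) and 3 were higher (11.1%). The 2 groups did not overlap for 20 of the 32, 7 higher and 13 lower (21.9% and 40.6%, against 23.7% and 21.2% of all tested genes, or 44.9% in either direction). Past a 2-fold change, 1 serpin was called higher and 4 lower, against 4.93% and 4.84% of all tested genes. The tested serpins had a median log2 fold change of -0.24. With library totals alone this median was 0.20, and 8 serpins were called higher and 5 lower, against 41.7% and 5.29% of all tested genes. Serpinb9, Serpina1a, Serpina1c, Serpina1e, Serpina3c and Serpina5 kept their call and direction in each alternative in which they were tested. Serpina5, the 1 serpin called higher past 2-fold, passed the filter on low counts only through the IRF3-2D libraries. Its direction was therefore fixed by the filter. The same holds for Serpina3i, which was not called. Both are among the 7 serpins whose groups did not overlap and were higher.

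**Figure D1:**
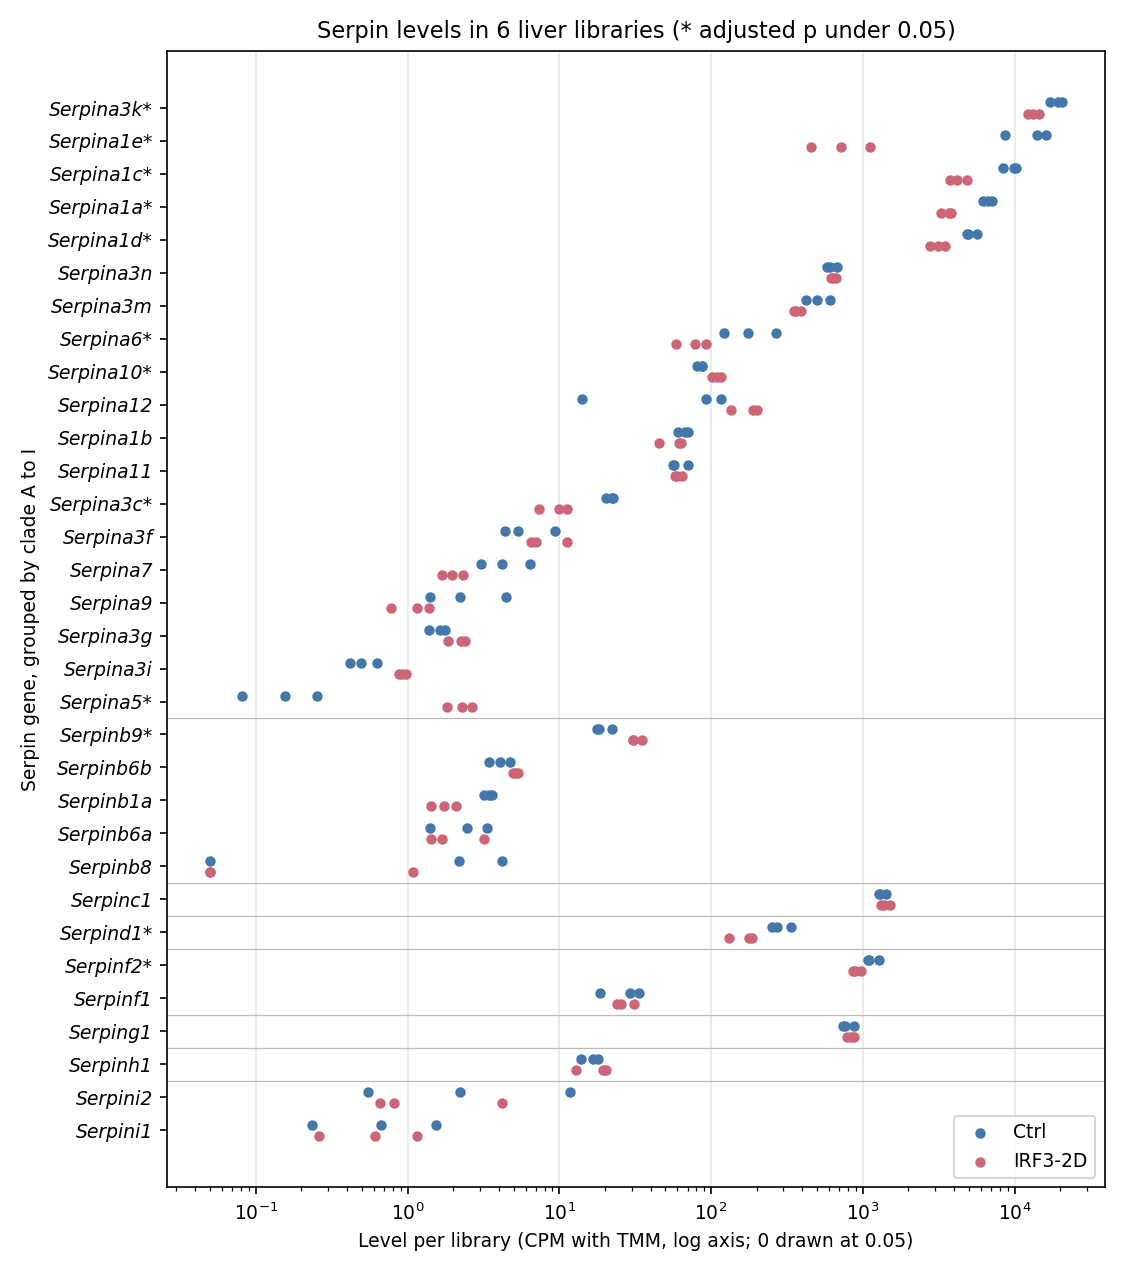
Level of each tested serpin gene in the 6 libraries, in CPM with TMM on a log axis, with Ctrl in blue and IRF3-2D in red and genes grouped by clade. The 3 IRF3-2D points of Serpina1e, at 456 to 1119 CPM, lie far below its Ctrl points at 8693 to 16076 CPM, and Serpina12 has a single Ctrl point at 14.1 CPM apart from the others.

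Together the serpins made up 5.45%, 5.05% and 4.51% of all counts in Ctrl and 3.54%, 3.35% and 3.63% in IRF3-2D libraries. The groups did not overlap. These shares are of library totals, without TMM. In Ctrl 2.93% ± 0.361 of counts came from Serpina1 genes, against 1.38% ± 0.104 with IRF3-2D (SD, n = 3 each). The other serpins took 2.07% ± 0.111 and 2.13% ± 0.0499 (SD, n = 3 each), and these groups overlapped. With TMM, by contrast, 5 of the 27 tested serpins outside Serpina1 were called lower. Within the superfamily Serpina3k therefore grew from 32.5% ± 1.36 to 44.5% ± 0.695 of serpin counts (SD, n = 3 each), although its own level did not rise. Shares of this kind depend on each other, since they add up to the whole.

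Alpha-1-antitrypsin is known as the main plasma inhibitor of neutrophil elastase. Its mouse copies, Serpina1a to Serpina1e, lie side by side on the minus strand of chromosome 12, and need not all inhibit the same protease. Their coding sequences are 96.3% to 98.47% identical over 1242 aligned bases. The reactive centre loop sets which protease is caught, and its stretch is shown here because it tells the copies apart. Each runs from the codons of the hinge to the strand that follows the loop, 81 bases of the GENCODE M21 coding sequence, 5′ to 3′, with capitals at the 18 positions where the 5 copies are not all alike.
Serpina1a: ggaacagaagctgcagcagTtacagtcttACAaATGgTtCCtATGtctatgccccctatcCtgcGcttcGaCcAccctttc
Serpina1b: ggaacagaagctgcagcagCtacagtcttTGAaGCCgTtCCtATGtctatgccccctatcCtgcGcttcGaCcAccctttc
Serpina1c: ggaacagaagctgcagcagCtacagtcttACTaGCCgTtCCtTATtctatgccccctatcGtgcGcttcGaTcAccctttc
Serpina1d: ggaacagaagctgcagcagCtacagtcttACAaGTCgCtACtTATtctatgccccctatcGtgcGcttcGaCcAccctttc
Serpina1e: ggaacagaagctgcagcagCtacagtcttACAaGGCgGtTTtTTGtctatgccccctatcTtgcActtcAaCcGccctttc
Serpina1e has 8 bases in this stretch that none of the other copies has, against 3 in Serpina1a and 2 each in Serpina1b, Serpina1c and Serpina1d. The codon before tct is ATG in Serpina1a and Serpina1b, TAT in Serpina1c and Serpina1d and TTG in Serpina1e. Which protease each copy inhibits was not tested, so a fall of a single copy is not read as a loss of elastase inhibition. Over whole transcripts, 54.19% of the 31-base words of Serpina1e also occur in another gene, as do 82.19% of those of Serpina1c, 65.18% of Serpina1a, 64.74% of Serpina1d and 44.73% of Serpina1b. Reads from these shared words were assigned by estimation, so the values of single copies are less certain than their sum.

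The Serpina1 genes together fell 2.91-fold, with 34366 ± 4085 CPM in Ctrl against 11819 ± 1369 CPM (SD, n = 3 each; log2 fold change -1.54, SE 0.13, edgeR adjusted p = 0.000311). Ctrl libraries held 458195, 427269 and 380384 Serpina1 counts, and IRF3-2D libraries 190520, 151586 and 196280. The groups did not overlap, and the call held in every alternative tried, with library totals alone at a log2 fold change of -1.09. Serpina1e (ENSMUSG00000072849, chr12:103946931-103958975) stood at 16076, 14068 and 8693 CPM in Ctrl and at 1119, 456 and 715 CPM in IRF3-2D libraries. It fell 17.0-fold (log2 fold change -4.08, SE 0.39, edgeR adjusted p = 0.000575), and even the highest IRF3-2D library was far below the lowest Ctrl library.

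The other copies had smaller fitted changes. Serpina1c, the most abundant of them, went from 8444, 10204 and 9954 CPM in Ctrl to 4182, 3738 and 4895 CPM in IRF3-2D libraries (2.23-fold lower, log2 fold change -1.16, SE 0.13, edgeR adjusted p = 0.00101). Serpina1a was at 6655 ± 493 CPM in Ctrl and 1.85-fold lower at 3598 ± 285 CPM (SD, n = 3 each, edgeR adjusted p = 0.00101). Serpina1d was at 5165 ± 465 CPM in Ctrl and 1.65-fold lower at 3130.2 ± 364 CPM (SD, n = 3 each, edgeR adjusted p = 0.00456), a call that was lost with library totals alone (log2 fold change -0.28). The groups of these 3 copies did not overlap. Serpina1b stood far below them, at 66.2 ± 5.26 and 56.7 ± 9.72 CPM (SD, n = 3 each), overlapped between the groups and was not called (edgeR adjusted p = 0.279), with a log2 fold change of -0.22 that turned to 0.22 with library totals alone. Serpina1f was listed at 0 in all libraries. Leaving Serpina1e out of the sum, a choice made after its values were seen, left a 1.94-fold fall (log2 fold change -0.95, edgeR adjusted p = 0.000703).

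Within the group, Serpina1e made up 43.0%, 39.1% and 29.2% of Serpina1 counts in Ctrl and 9.08%, 4.44% and 5.55% in IRF3-2D libraries. By mean share it was the first of the copies in Ctrl and the fourth with IRF3-2D. The log2 ratio of Serpina1e to the other copies was -0.77 ± 0.45 in Ctrl, against -3.95 ± 0.57 with IRF3-2D (SD, n = 3 each), a 9.02-fold difference between ratios. This ratio was formed after the values of Serpina1e were seen and was not tested. Of the 12 hepatocyte markers, 9 were called lower and 1 higher, with a median log2 fold change of -0.97 (-0.52 with library totals alone). Among them Alb fell 2.33-fold and Apob 2.29-fold, while Ttr, the 1 called higher, rose 1.79-fold. Whether a general change in hepatocyte transcripts has a part in the Serpina1 values was not tested.

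**Figure D2:**
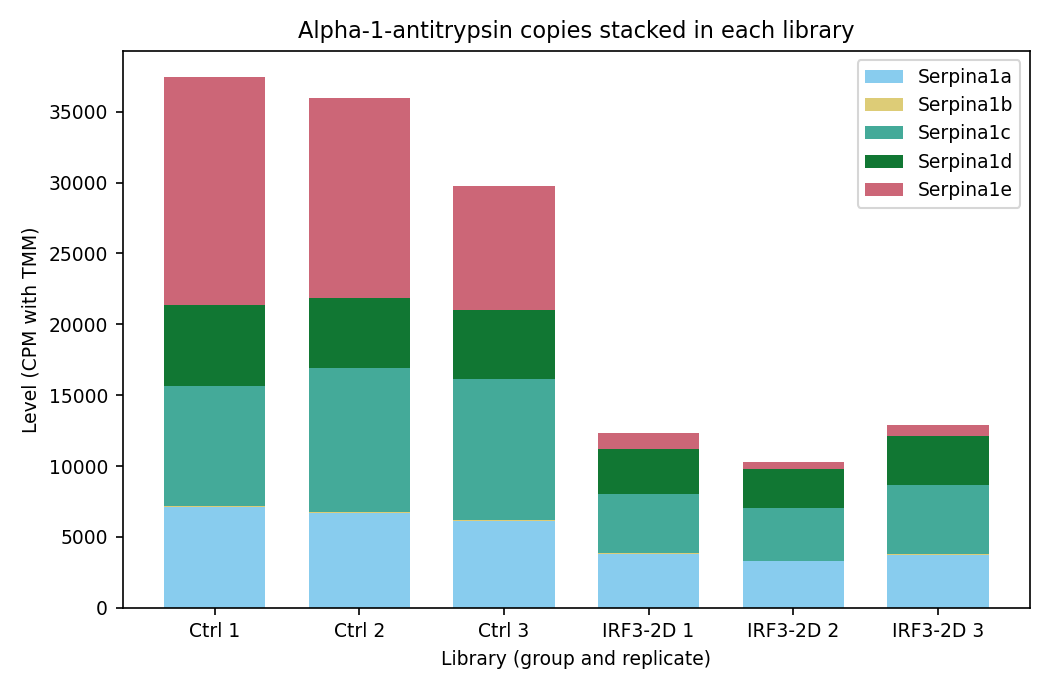
Stacked levels of Serpina1a to Serpina1e in each library, in CPM with TMM from 0. The Serpina1e segment spans 8693 to 16076 CPM in the Ctrl bars and 456 to 1119 CPM in the IRF3-2D bars, where Serpina1a, Serpina1c and Serpina1d make up most of the height.

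The Serpina3 group, mouse relatives of antichymotrypsin, had 10 genes with a row, of which 7 were tested. Serpina3k, a plasma serpin known for binding tissue kallikrein, was the most abundant serpin, with 19204, 20602 and 17262 CPM in Ctrl and 13316, 12350.2 and 14472 CPM in IRF3-2D libraries. It was 1.42-fold lower (log2 fold change -0.51, SE 0.10, edgeR adjusted p = 0.0109) without overlap between the groups. This call depended on the scaling and on 1 library: the log2 fold change was -0.06 with library totals alone (adjusted p = 0.583), and the adjusted p was 0.0605 without IRF3-2D replicate 1. The sum of the Serpina3 group, 20183 ± 1546 and 14408 ± 1057 CPM (SD, n = 3 each), is mostly Serpina3k and behaved likewise (log2 fold change -0.49, edgeR adjusted p = 0.00967, but -0.03 with library totals alone and adjusted p = 0.0586 without IRF3-2D replicate 1).

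Serpina3c held its call throughout. It had 272, 240 and 290 counts in Ctrl and 114, 165 and 153 in IRF3-2D libraries, or 21.7 ± 1.32 and 9.53 ± 1.95 CPM (SD, n = 3 each), and was 2.28-fold lower (log2 fold change -1.19, SE 0.18, edgeR adjusted p = 0.00335), and the groups were well apart. Serpina3n, an acute phase serpin that can inhibit granzyme B, was level at 620.3 ± 49.8 and 637 ± 24.6 CPM (SD, n = 3 each, log2 fold change 0.04, edgeR adjusted p = 0.793). With library totals alone it was called higher (log2 fold change 0.49, which is also the median of all genes there). Serpina3m, whose annotated span begins at the same base as that of Serpina3k and which shares 24.49% of its 31-base words with it, was just outside the threshold (log2 fold change -0.46, edgeR adjusted p = 0.0513) and was called lower by DESeq2 and limma-voom and without Ctrl replicate 2. The scarcer Serpina3f, Serpina3g (an intracellular serpin of leukocytes) and Serpina3i had log2 fold changes of 0.38 to 0.84 and were not called. Serpina3i had 6, 5 and 8 counts in Ctrl and 15, 13 and 14 with IRF3-2D. It passed the filter on low counts only through the IRF3-2D libraries, which fixed its direction. Serpina3a, Serpina3b and Serpina3j had no more than 6 counts in any library. Unlike the Serpina1 copies, these genes are 80.0% to 91.29% identical in pairs, and 16.86% to 34.99% of the words of the tested ones are shared with another gene.

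Of the hormone carriers of clade A, Serpina6 was called lower and Serpina7 was not. Serpina6, the corticosteroid-binding globulin of plasma, stood at 269.7, 121 and 174 CPM in Ctrl and at 78.0, 58.8 and 92.7 CPM in IRF3-2D libraries. It was 2.46-fold lower (log2 fold change -1.30, SE 0.30, edgeR adjusted p = 0.0194), with no overlap but a wide spread in Ctrl. The call of Serpina6 was lost without IRF3-2D replicate 1 (log2 fold change -1.32, adjusted p = 0.0677) or replicate 2 (-1.14, adjusted p = 0.0729). Serpina7, the thyroxine-binding globulin, was scarce at 4.57 ± 1.73 and 2.00 ± 0.314 CPM (SD, n = 3 each) and not called (log2 fold change -1.19, edgeR adjusted p = 0.0546), though DESeq2 and the fit without Ctrl replicate 3 called it lower. Of 7 other tested genes of hormone carriage and angiotensin processing, 2 were called higher and 3 lower, Alb and Ttr being carriers themselves. Dio1, which converts thyroxine to its active form, fell 3.69-fold, and Hsd11b1, which regenerates active glucocorticoid, rose 2.02-fold.

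Serpina5, which encodes protein C inhibitor, was called higher. Its counts were 1, 3 and 2 in Ctrl against 41, 27 and 35 with IRF3-2D. All 3 IRF3-2D libraries lay far above every Ctrl library, and the level of 2.26 ± 0.413 CPM was still low (SD, n = 3). Serpina5 passed the filter on low counts only through the IRF3-2D libraries, so that a gene with these Ctrl counts could be tested only if it was higher with IRF3-2D. The ratio of summed counts, scaled by library, was 13.9-fold with a 95% exact interval of 6.19 to 38.9 that covers counting error only. The fitted log2 fold change was 3.72 (SE 0.53, edgeR adjusted p = 0.00285), and 3.42 to 4.14 when single libraries were left out. None of its 31-base words occurs in another gene.

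None of the 3 genes between Serpina1e and Serpina5 on chromosome 12 was called. Serpina12, or vaspin, a serpin first known from fat tissue, stood at 14.1, 116 and 92.5 CPM in Ctrl and 201, 136 and 190.5 CPM in IRF3-2D libraries. All IRF3-2D values were above all Ctrl values, but Ctrl replicate 1 was far below the rest. Serpina12 was not called (log2 fold change 1.25, SE 0.63, edgeR adjusted p = 0.194), and without Ctrl replicate 1 its log2 fold change was 0.76 with an adjusted p of 0.041. Serpina11, a secreted liver protein that lies next to Serpina1e, had overlapping values of 61.1 ± 7.99 and 60.6 ± 3.33 CPM (SD, n = 3 each) and a log2 fold change of -0.01, which was 0.44 and called higher with library totals alone, and 37.23% of its words are shared with the annotated gene Gm28577. Serpina9, known from germinal centre B cells, was at 2.69 ± 1.58 and 1.10 ± 0.303 CPM (SD, n = 3 each) and not called (edgeR adjusted p = 0.122). Across the 799.5 kb from Serpina10 to Serpina3n (chr12:103614786-104414329), 23 members lie in a row, of which 18 were tested, 2 called higher and 7 lower. Of all tested genes, 13.2% were called higher and 13.1% lower. The lower calls here include Serpina1a, Serpina1c, Serpina1d and Serpina1e, near-identical copies that share reads.

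**Figure D3:**
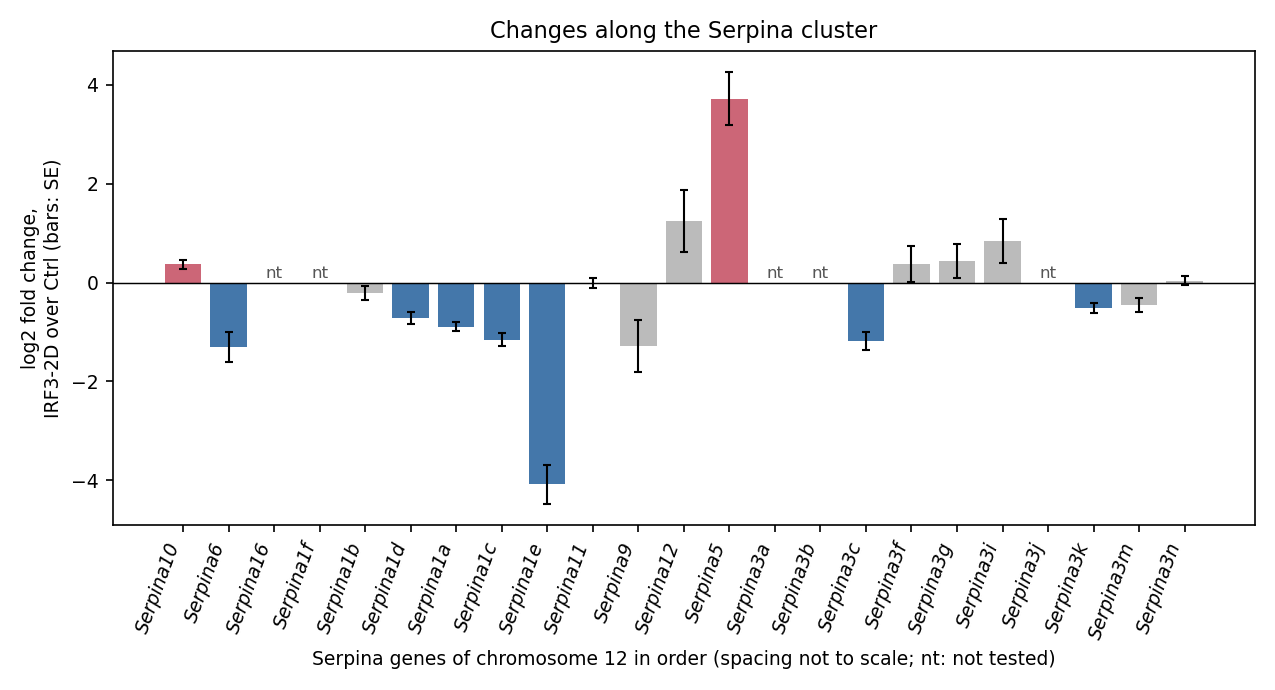
log2 fold change of IRF3-2D over Ctrl, with its standard error, for the 23 Serpina genes of chromosome 12 in their order on the chromosome (red called higher, blue called lower, grey not called, nt not tested). Bars of opposite sign stand close together: Serpina1e at -4.08 is followed by Serpina11 at -0.01, Serpina9 at -1.28, Serpina12 at 1.25 and Serpina5 at 3.72.

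Of the serpins of blood clotting and its reversal, Serpind1 and Serpinf2 were called lower, Serpina10 higher and Serpinc1 was not called. Serpinc1, antithrombin, the main inhibitor of thrombin and factor Xa, stood at 1296, 1278 and 1416 CPM in Ctrl and 1316, 1375 and 1508 CPM in IRF3-2D libraries. The groups overlapped and Serpinc1 was not called (log2 fold change 0.07, SE 0.09, edgeR adjusted p = 0.592), but it was called higher with library totals alone (0.53). Serpind1, heparin cofactor II, which inhibits thrombin, fell 1.74-fold from 336, 271 and 253 to 185, 132 and 178 CPM (log2 fold change -0.80, SE 0.17, edgeR adjusted p = 0.0126) without overlap, and lost its call with library totals alone (-0.35). Serpinf2, alpha-2-antiplasmin, which stops plasmin, was at 1152 ± 111 and 903 ± 57.5 CPM (SD, n = 3 each). Its small fall (log2 fold change -0.35, edgeR adjusted p = 0.0419) turned to 0.10 with library totals alone and was no longer called when any of the 5 libraries besides IRF3-2D replicate 3 was left out (-0.27 to -0.40).

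Serpina10, the inhibitor of factor Xa that acts with protein Z, rose from 87.7, 80.3 and 86.6 to 109.6, 117 and 102 CPM. The groups did not overlap, yet the 1.29-fold rise was small (log2 fold change 0.37, SE 0.09, edgeR adjusted p = 0.0194). The call of Serpina10 was lost when any 1 library but Ctrl replicate 1 and IRF3-2D replicate 3 was left out (0.32 to 0.38). Proz, the gene of its cofactor protein Z, fell 1.43-fold (edgeR adjusted p = 0.0055), a call that was lost with library totals alone. Of 12 tested coagulation and fibrinolysis proteases, 6 were called lower and none higher, with a median log2 fold change of -0.38 that was 0.07 with library totals alone (2 higher and 3 lower). Klkb1, plasma kallikrein, fell 2.46-fold (43.15% of its words are shared with other genes), F7, the starter of the extrinsic pathway, 1.72-fold, and Tmprss6, a membrane protease of iron control, 2.14-fold. Of 11 tested cofactors and clearance receptors of serpins 4 were called lower and none higher, and 2 were lower without Ctrl replicate 3 or IRF3-2D replicate 1 or 2. With library totals alone 3 of these were higher and 1 lower.

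Serping1, C1 inhibitor, which holds back the complement proteases C1r and C1s and plasma kallikrein, did not differ beyond the spread. It stood at 876, 768 and 739 CPM in Ctrl and 869.9, 838 and 786 CPM in IRF3-2D libraries, with overlap (log2 fold change 0.07, SE 0.10, edgeR adjusted p = 0.66, but 0.52 and called higher with library totals alone). The genes of its targets were called in both directions. C1ra rose 1.85-fold and C1s1 rose 1.51-fold, although 59.3% and 33.46% of their words are shared with other genes, while Klkb1 fell. Of 8 tested complement and lectin proteases, 3 were called higher and 2 lower (3 and 1 with library totals alone), and the 2 lower calls, of Cfd and Cfi, fell to 1 or none when any single library was left out.

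**Figure D4:**
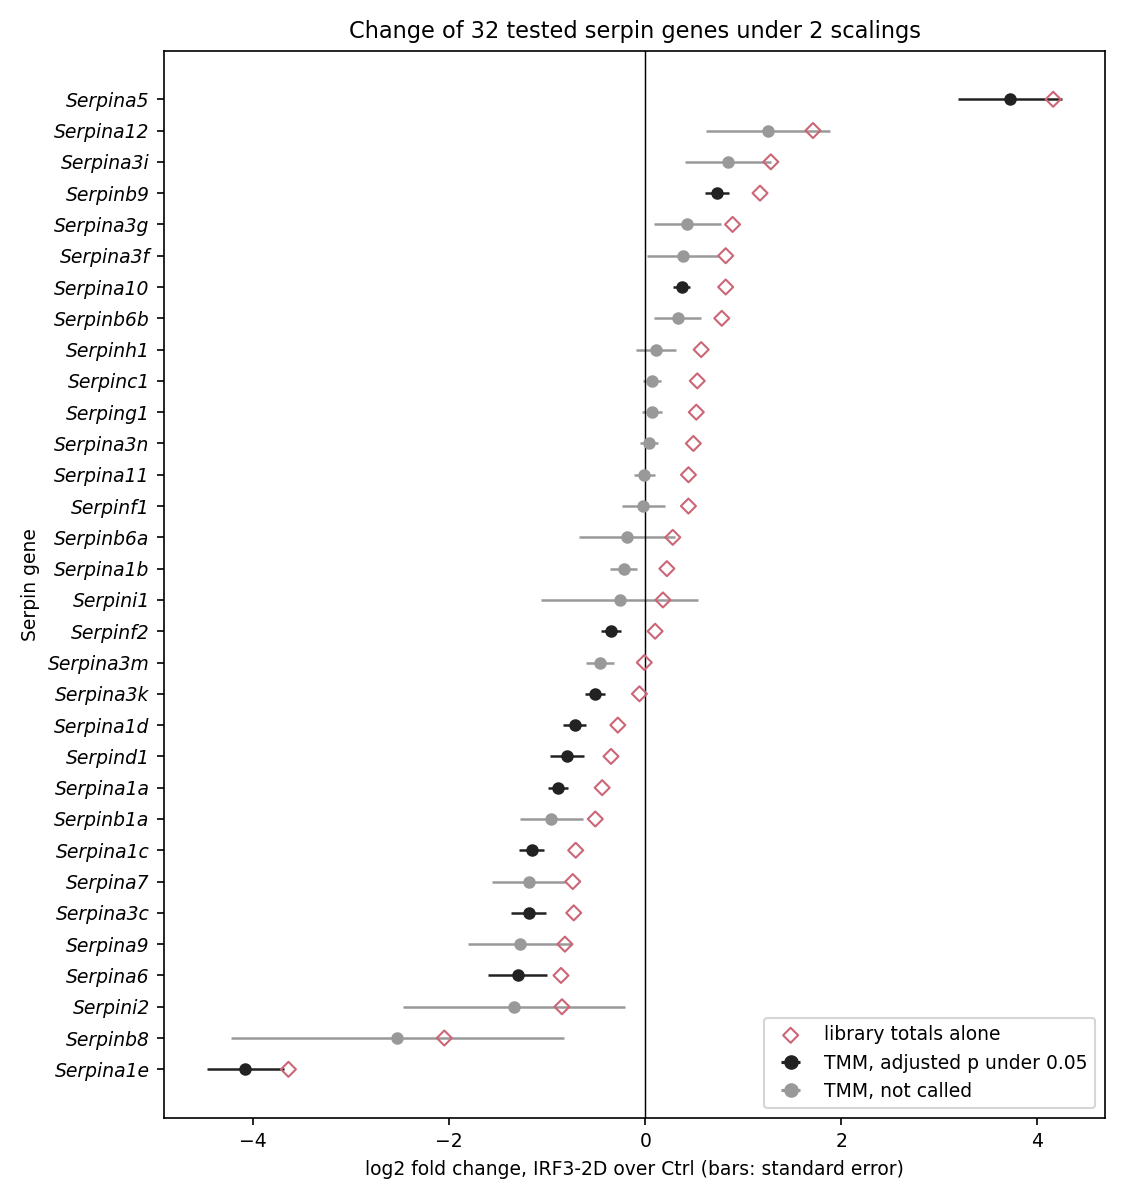
log2 fold change of each of the 32 tested serpins with TMM (filled points with standard errors, black where called) and with library totals alone (open diamonds). The diamonds lie to the right of the points throughout, so that Serpina3k moves from -0.51 to -0.06, Serpinf2 from -0.35 to 0.10 and Serpina1e from -4.08 to -3.64.

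Clade B, the intracellular serpins, had 25 members with a row, of which 15 were listed at 0 in all libraries and 5 were tested. Serpinb9, the inhibitor of granzyme B that protects cells from their own or a killer cell's granules, rose from 22.4, 17.8 and 18.3 to 30.7, 30.8 and 35.2 CPM. It was 1.65-fold higher (log2 fold change 0.73, SE 0.12, edgeR adjusted p = 0.00578) with the groups apart, and its call held in every alternative tried (0.65 to 0.83 when single libraries were left out). Its mouse copies Serpinb9b to Serpinb9g had at most 2 counts in any library. Serpinb1a, which inhibits neutrophil elastase and cathepsin G, stood at 3.41 ± 0.217 and 1.76 ± 0.337 CPM (SD, n = 3 each) without overlap. It was not called by edgeR (log2 fold change -0.96, adjusted p = 0.068), and limma-voom called it lower (adjusted p = 0.0453).

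The remaining clade B genes were scarce. Serpinb6a and Serpinb6b, intracellular serpins that can bind cathepsin G, were not called (log2 fold changes -0.19 and 0.33), nor was the sum of the Serpinb6 group, 6.51 ± 0.777 and 7.23 ± 1.13 CPM (SD, n = 3 each, edgeR adjusted p = 0.644). Serpinb8 had 51, 26 and 0 counts in Ctrl and 0, 16 and 0 in IRF3-2D libraries. With a 0 in each group beside counts of 16 to 51 no direction can be read, and Serpinb8 was not called (adjusted p = 0.318). Below the count filter, Serpinb7 had 24 counts in IRF3-2D replicate 3 and at most 9 elsewhere, and Serpinb2 had 6 counts in IRF3-2D replicate 2 and none elsewhere. Where a library shows 0, a level of 0.194 to 0.252 CPM (3 counts, depending on the library) remains possible, for counting error only.

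Markers of the immune cells that also hold clade B serpins were set beside these values. Of 11 tested genes marking macrophages 3 rose and none fell (7 higher with library totals alone), and the 12 listed together stood at 464 to 525 CPM in Ctrl and 535 to 763 CPM in IRF3-2D libraries, without overlap. Only 1 macrophage marker was called without any one of Ctrl replicates 2 and 3 and IRF3-2D replicates 1 and 2, 2 without Ctrl replicate 1, and 6 without IRF3-2D replicate 3. The 10 T and NK cell markers summed to 6.14 to 9.56 CPM and 6.86 to 10.2 CPM, with Cd3g at 0, and the 9 neutrophil markers to 7.74 to 13.3 CPM and 8.47 to 14.2 CPM, with Mpo at 0. Of these, 2 T and NK cell and 3 neutrophil markers were tested; edgeR, DESeq2 and limma-voom called 0 of them, and 0 had an unadjusted p under 0.05. Of 6 monocyte and dendritic cell markers 1, Ly6c2, was called higher by edgeR and DESeq2, but not by limma-voom and not without IRF3-2D replicate 2. Ly6c2 had 8, 3 and 9 counts in Ctrl and 74, 102 and 27 in IRF3-2D libraries. It passed the filter on low counts only through the IRF3-2D libraries, so the direction of its call was fixed by the filter. None of 3 B and plasma cell, 5 erythroid, 1 mast cell and 1 platelet markers was called by any of the 3 tools, and of these only the mast cell marker had an unadjusted p under 0.05. Of 10 granule and mast cell proteases 2 reached the test; 0 were called by edgeR, DESeq2 or limma-voom and 0 had an unadjusted p under 0.05, Gzmb, the target of Serpinb9, standing at 0.673 and 1.30 CPM (edgeR adjusted p = 0.233). The part of immune cells in the Serpinb9 value was not tested. Of 11 tested cathepsins, lysosomal proteases, 3 were called higher and none lower (7 higher with library totals alone). Ctsz rose 2.05-fold and Ctsl, which some clade B serpins can inhibit, rose 1.88-fold.

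The serpins of matrix and nerve were not called. Serpinh1 (HSP47), the collagen chaperone of the endoplasmic reticulum, was at 18.0, 16.7 and 13.9 CPM in Ctrl and 20.3, 19.4 and 12.9 CPM in IRF3-2D libraries (log2 fold change 0.11, edgeR adjusted p = 0.715). Serpinf1, pigment epithelium-derived factor, which restrains vessel growth, was at 27.1 ± 7.60 and 26.8 ± 3.82 CPM (SD, n = 3 each), with a log2 fold change of -0.02 that was 0.44 with library totals alone. Both overlapped fully between the groups. Of 17 tested collagens and collagen-folding genes 2 were called lower and none higher, Col18a1 (1.57-fold) and Col14a1 (1.59-fold). With library totals alone neither was called and 4 of the list were higher. Col14a1 also lost its call without Ctrl replicate 2, Ctrl replicate 3 or IRF3-2D replicate 1. Of 9 tested stellate cell and fibroblast markers, which mark cells that make collagen, 1 was called lower (none with library totals alone), with sums of 176 to 234 CPM in Ctrl against 162 to 207 CPM and Pdgfrb at 0. Of 11 endothelial markers 4 were called lower, none with library totals alone and 1 to 3 when any library was left out, with sums of 529 to 548 against 353 to 469 CPM. Of 7 cholangiocyte and mesothelial markers edgeR and limma-voom called 0 and DESeq2 called 1, and 2 had an unadjusted p under 0.05.

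Serpini1 (neuroserpin, an inhibitor of tissue plasminogen activator) had at most 19 counts per library. Serpini2 had 27, 139 and 7 counts in Ctrl and 65, 12 and 10 in IRF3-2D libraries, so that its log2 fold change of -1.34 turned to 0.46 without Ctrl replicate 2. The groups overlapped for both genes, and neither was called (edgeR adjusted p = 0.839 for Serpini1 and 0.43 for Serpini2). Serpine2, protease nexin-1, and Serpine3 were listed at 0 throughout. Sec23a, a secretion gene that cells use widely, and Timp3 were also listed at 0 in all libraries. Why rows are at 0 was not tested, so a 0 is not read as absence here.

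Other inhibitors and acute phase proteins of the liver also moved both ways. Of 22 tested protease inhibitors that are not serpins, 6 were called lower and 2 higher, with a median log2 fold change of -0.16, and with library totals alone 4 were lower and 8 higher. Pzp, a bait inhibitor that surrounds proteases, was 2.19-fold lower at 4076 ± 157 CPM, against 8929 ± 2044 CPM in Ctrl (SD, n = 3 each), while Itih4 fell 3.31-fold. The 2 higher calls were those of Slpi and Spint2. Slpi lost its call when any single library was left out, and Spint2 kept its call only without IRF3-2D replicate 2. Of 18 tested acute phase proteins outside the superfamily, 5 were called lower and 3 higher (2 and 6 with library totals alone). Saa4 fell 3.15-fold, while Hp, which binds free haemoglobin, rose 2.01-fold and Steap4 rose 2.94-fold. The 5 lower calls were 3 without Ctrl replicate 2 or IRF3-2D replicate 1 or 3.

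Among 22 tested regulators of serpin and acute phase genes 6 were called higher and 3 lower (14 and 1 with library totals alone), and 3 were higher without IRF3-2D replicate 1, 4 without Ctrl replicate 3 or IRF3-2D replicate 2. Both receptor chains for interleukin 6, which drives acute phase genes, were lower: Il6ra 2.26-fold and Il6st 1.42-fold, the latter not with library totals alone. Stat2 (3.01-fold), Irf9 (1.68-fold) and Irf1 (2.00-fold) of interferon signalling were higher. Of 21 tested genes of secretion and clearance of misfolded serpins in the endoplasmic reticulum, 7 fell and none rose, while library totals alone gave 3 lower and 8 higher. Sel1l and Herpud1 of the degradation machinery fell 2.30-fold and 1.92-fold, and Lman1, the cargo receptor that carries alpha-1-antitrypsin out of the endoplasmic reticulum, 1.58-fold, a call lost with library totals alone.

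**Figure D5:**
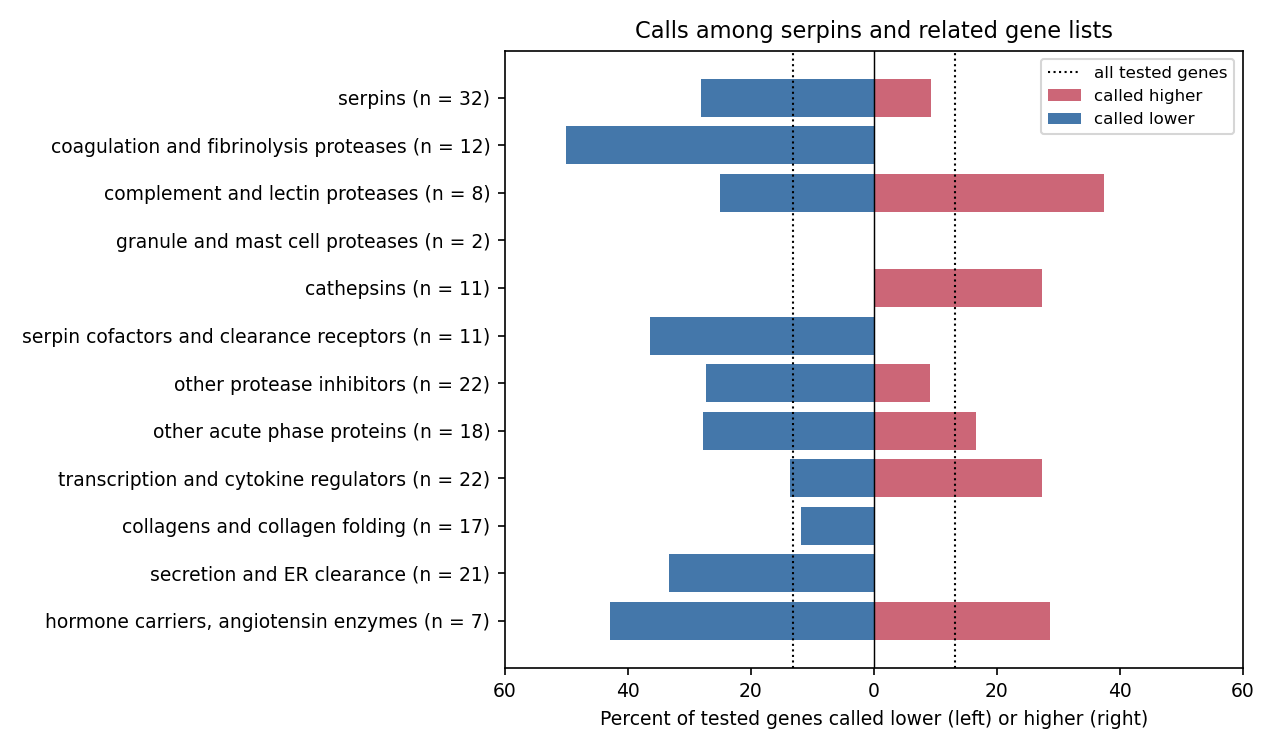
Percent of tested genes called lower (blue, left) or higher (red, right) among the serpins and 11 lists of related genes, with dotted lines at the 13.1% and 13.2% of all tested genes. Serpins have 28.1% lower and 9.38% higher, coagulation and fibrinolysis proteases reach 6 of 12 lower, and cathepsins have higher calls only.

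Sequence upstream of the start was searched because Serpina1a, Serpina1c, Serpina1d and Serpina1e were called lower and Serpinb9 and Serpina5 higher. Serpina1b was not called, and the direction of Serpina5 was fixed by the filter on low counts. RefSeq windows of 250 bases before the start (GRCm38.p6) were found for 51 members. Motifs were sought on both strands by their letters: GAAA, 2 bases of any kind and GAAA (core of the interferon response element), TTCNNNGAA (core of STAT sites), TTGCNNAA (core of C/EBP sites) and GTTAAT, 2 bases of any kind, TT, 1 of any kind and AC (core of HNF1 sites). Matches of different motifs can overlap, as the first 2 do in Serpinb6a. The interferon core was in 2 of the 51, Serpinb9 and Serpinb6a (3.92%, against 3.04% of all 27025 windows). The STAT core was in 7 (13.7% against 7.18%), the C/EBP core in 12 (23.5% against 9.55%) and the HNF1 core in none (against 0.107%). These shares were not tested, and related copies count separately in them. Serpina1b, Serpina1d and Serpina1e have the same C/EBP match, in windows 93.7% to 97.98% identical. Serpina3f, Serpina3g and Serpina3i, of the same group, all have the STAT core. Serpina1f, listed at 0 in all libraries, has both cores, and other untested members are also counted. A match is a description of letters and no proof of a site, and a missing match is no proof that a site is absent. The HNF1 pattern is strict, with a match in only 29 of the 27025 windows, so sites with other letters would be missed.

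The windows of Serpinb9, Serpina5 and of 2 Serpina1 copies are shown, 5′ to 3′ on the strand of the gene, with matches in capitals. In Serpinb9 (chr13:33004291-33004540, plus strand) the interferon core begins 46 bases before the start. This window lies inside the GENCODE span of Serpinb9 (chr13:33003250-33017957). The windows of Serpina1e and Serpina1b also lie inside the GENCODE spans of their genes. Matches and window comparisons therefore depend on the RefSeq start that was used. In Serpina5 (chr12:104100863-104101112, plus strand) a C/EBP core begins 242 bases before the start. The windows of Serpina1e (chr12:103956898-103957147, minus strand) and Serpina1a (chr12:103863620-103863869, minus strand) are 95.34% identical over 193 aligned bases. A C/EBP core was found in Serpina1b, Serpina1d and Serpina1e, and none of the 4 motifs in Serpina1a or Serpina1c.
Serpinb9: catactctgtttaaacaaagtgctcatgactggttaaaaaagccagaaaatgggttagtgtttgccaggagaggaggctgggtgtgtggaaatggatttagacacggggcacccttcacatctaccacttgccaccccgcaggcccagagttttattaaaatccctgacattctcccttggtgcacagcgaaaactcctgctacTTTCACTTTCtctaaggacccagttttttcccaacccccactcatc
Serpina5: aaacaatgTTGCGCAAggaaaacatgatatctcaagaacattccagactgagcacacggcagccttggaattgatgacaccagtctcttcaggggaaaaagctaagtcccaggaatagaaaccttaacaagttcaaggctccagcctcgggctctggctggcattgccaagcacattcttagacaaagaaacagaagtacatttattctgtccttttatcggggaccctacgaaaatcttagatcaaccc
Serpina1e: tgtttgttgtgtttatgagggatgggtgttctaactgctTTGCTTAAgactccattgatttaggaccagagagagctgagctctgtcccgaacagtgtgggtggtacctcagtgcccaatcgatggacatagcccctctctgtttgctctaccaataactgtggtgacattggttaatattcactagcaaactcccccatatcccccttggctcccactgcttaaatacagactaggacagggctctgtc
Serpina1a: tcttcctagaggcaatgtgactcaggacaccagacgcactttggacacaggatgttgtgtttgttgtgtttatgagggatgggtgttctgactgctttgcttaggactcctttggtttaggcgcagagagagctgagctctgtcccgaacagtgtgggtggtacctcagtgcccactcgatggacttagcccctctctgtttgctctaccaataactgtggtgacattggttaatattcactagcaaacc
The Serpina1e window shares 95.34% to 97.98% of its aligned bases with those of the other copies, over 188 to 199 aligned bases. The highest of these values is with Serpina1b, which was not called. Serpina1e fell 17.0-fold and the other copies with calls 1.65-fold to 2.23-fold. Whether upstream sequence has a part in these differences was not tested.

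Ranked by level per length (CPM per kilobase of the longest coding transcript), the plasma serpins stood far above the rest. Serpina3k led in both groups, with a level of 9248 CPM per kilobase in Ctrl and 6504 in IRF3-2D liver. Serpina1e was the second-ranked serpin in Ctrl at 8219 CPM per kilobase and the fifth in IRF3-2D liver at 484 CPM per kilobase, beside Serping1 at 470.2. Neither place was fixed. Its Ctrl libraries reached from above Serpina3k to below Serpina1c, and its rank with IRF3-2D rested on IRF3-2D replicate 1, at 1119 CPM against 456 and 715 CPM in the others. Serpina1c, Serpina1a and Serpina1d followed in the same order in both groups. Serpinf2, Serping1, Serpina3m, Serpina3n and Serpinc1 held ranks 6 to 10 in Ctrl, at 525 to 268 CPM per kilobase. Serpina12, ranked 16 in Ctrl and 13 with IRF3-2D, owed its low Ctrl rank in part to the single library at 14.1 CPM.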

How the data were processed

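RNA of 6 liver samples was sequenced from poly-A selected, strand-specific libraries, per the labels' protocols. The deposited values are estimated counts per gene, 1 column per library, whose name is the one the labels give that sample's library. The submitters' processing notes list Salmon 1.2.1 and mouse builds under both names, GRCm38 and mm10. How transcripts were annotated and summed to genes, and with which strand setting, is not given in the sources used here. All values were whole numbers and were used as they stand. Salmon splits reads shared by similar transcripts by estimation, so single copies within the Serpina1 and Serpina3 clusters are uncertain, and cluster sums were fitted too. A gene's value may rest on few of its transcripts.

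Of 20894 identifiers 20817 matched GENCODE M21. Genes passing filterByExpr (10802) were tested with edgeR 4.0.16 (R 4.3.3), TMM and the quasi-likelihood test, with the group as the only term and Benjamini-Hochberg adjustment over all tested genes at 0.05. The function was tested on simulated counts. Alternatives were DESeq2 1.42.0, limma-voom (limma 3.58.1), RLE, upper-quartile and no scaling, other filters, the replicate block and each library left out. Replicates differed by more than sampling noise (chi-square per degree of freedom of 20.2 to 120), and since the labels do not say that they are separate mice, the spread behind each p-value may be technical. With 3 counts as the floor, a count of 0 allows 0.194 to 0.252 CPM, for counting error only.

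Every tested member could be named. Untested members were named from a mean of 1 count up, and from each of 11 gene lists and 12 cell type lists up to 4 called genes, or the smallest p where none was called. Il6st, Irf1, Lman1, Apob, Ttr, Dio1, Hsd11b1, Slpi, Spint2, Cfd, Cfi, Sec23a and Timp3 stand outside the list rule where they are not among the first 4 and were chosen after their values were seen. The members and lists were chosen with earlier results of these data known. Shared 31-base words were counted over all GENCODE M21 transcripts.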

Additional observations from a re-analysis of the deposited data

How the results depend on the processing

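The replicate numbers are shared by the groups but did not pair the samples: the correlations of same-numbered deviations from the group means were 0.1, -0.03 and 0.04, and not every sample correlated best with its own number. With the replicate block, 2 serpins were higher and 8 lower, and 1038 and 1128 of all genes. Serpina10 (0.37, edgeR adjusted p = 0.0565), Serpinf2 (-0.35, adjusted p = 0.0935), Slpi, Spint2, Cfd and Ly6c2 were not called with the block. Of 167 values of the 12 called serpins under alternatives, 148 kept the call, 18 lost it and 1 changed sign (Serpinf2, 0.10 with library totals alone). Library totals alone, which moved the median gene by about the same amount, gave 8 serpins higher and 5 lower, 4500 and 571 of all genes, and -0.03 for the Serpina3 sum. There Serpina11 (0.44), Serpina1b (0.22), Serpinb6a (0.28), Serpinf1 (0.44) and Serpini1 (0.18) also changed sign. Serpinf1 was 0.01 with limma-voom and 0.01 with the replicate block. With a 2-fold minimum 1 serpin was higher and 4 lower, with clusters summed 5 were lower, and without the Serpina1 genes (added after seeing the data) 5 were lower. When single libraries were left out, 2 to 4 serpins were higher and 6 to 9 lower, and 851 to 1312 and 920 to 1363 of all genes. The Serpina3 sum then ranged from -0.55 to -0.43, Serpina11 from -0.08 to 0.10, Serpina3n from -0.01 to 0.10, Serpinb6a from -0.61 to 0.12, Serpinf1 from -0.23 to 0.16, Serpinh1 from -0.01 to 0.28, Serpini1 from -0.91 to 0.58 and Serpini2 from -2.70 to 0.46. The cause of these changes was not tested beyond the scaling, the filter or the samples removed. Serpina5 was not tested at a mean count of at least 50. Of the 27 untested members, 18 were listed at 0 in all libraries, as were Sec23a and Timp3. Why these rows are at 0 was not tested.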
